A study of Mus musculus with 60 samples.

Results

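Collagen genes were taken as every gene whose symbol consists of Col, a number, the letter a and a number, which is the pattern mouse nomenclature uses for the α chains of collagen. The rule found 44 genes among the 19355 symbols listed for the cultured cells and 42 genes among the 17473 symbols listed for the livers. Col19a1 and Col26a1 were listed for the cultured cells only, so both tables together held 44 genes. The rule itself uses the symbol only.

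The study compared polyA RNA-seq profiles of mouse hepatocytes that were induced to grow in culture by interleukin 6 (IL6) with those of livers regenerating after partial hepatectomy (PHX), the surgical removal of most of the liver. All samples carried the labels WT and C57BL/6. Hepatocytes were the freshly isolated cells. IL6-iHPCs (IL6-induced hepatic progenitor cells) were profiled at day 3 (D3) and day 14 (D14) of the first culture, before any passage (P0), and as passaged cells from mouse-1 at passage 10 (P10) and at passage 35 (P35), from mouse-2 at P10, and from clone-1, which descended from a single hepatocyte, at passage 20 (P20). In the study, clones of single hepatocytes, clone-1 among them, came from mice with Albumin-Cre and a tdTomato reporter. IL6-iHPCs were grown on gelatin, a collagen product, in a medium with EGF, HGF, dexamethasone and IL6. A separate day 7 set held primary hepatocytes, IL6-iHPCs at day 7 and hepatocytes cultured for 7 days without IL6. IL6-iMHs (IL6-induced mature hepatocytes) were cells labelled with the same 4 passaged lines after 7 days in a maturation medium with oncostatin M and dexamethasone. Mouse-1 enters these 4 at both P10 and P35, so averages over the lines weighted it more than mouse-2 or clone-1. Agreement in all 4 is therefore not agreement of 4 separate lines. Livers were taken from normal mice and from mice 6 or 24 h after PHX and on days 3, 7 and 14 after it. Each of the 11 cell groups and 6 liver groups had 3 samples, and so did each group of the day 7 set. The study described the 3 samples of a cell group as technical repeats, so p-values for the cultures measured only the spread between such repeats, and a difference between groups could also be a difference between mice, isolations or cultures. The labels did not say whether the 3 livers of a group came from separate mice.

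Collagens are secreted proteins built from 3 α chains that wind into a triple helix, and the chains of one helix may come from one gene or from several. The fibrillar types I, III and V form the cables of connective tissue, type IV forms the sheet of basement membranes, type VI forms beaded filaments between cells and fibrils, the fibril-associated types coat the surface of fibrils, and the multiplexins XV and XVIII carry heparan or chondroitin sulfate and sit at basement membranes. In liver the fibrillar chains are made mainly by stellate cells and portal fibroblasts, while Col18a1, whose C-terminal fragment is endostatin, is a known product of hepatocytes. A reading in FPKM is a fragment count divided by transcript length and library size, so levels of different genes were compared on that scale only.

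The genomic arrangement of the chains bears on how their readings can be told apart. Col4a1 at chr8:11198423-11312826 (minus strand) and Col4a2 at chr8:11312805-11449287 (plus strand) are head-to-head neighbours in the GENCODE vM21 annotation of GRCm38, and their first exons share 22 bases on opposite strands. The labels did not say that strand was kept, so fragments over this stretch could not be assigned to either gene, although it is a small part of both. It is shown because both chains were called higher than in hepatocytes in every cultured stage below, and higher than in normal liver on days 3 and 7 after PHX.
Col4a1 and Col4a2: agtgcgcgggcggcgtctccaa
Col6a1 at chr10:76708792-76726168 and Col6a2 at chr10:76595762-76623630, both on the minus strand, share no exon base. These genes also moved together, and the bases directly upstream of each, at chr10:76726169-76726294 for Col6a1 and at chr10:76623631-76623880 for Col6a2, are shown 5′ to 3′ on the gene's strand.
Col6a1: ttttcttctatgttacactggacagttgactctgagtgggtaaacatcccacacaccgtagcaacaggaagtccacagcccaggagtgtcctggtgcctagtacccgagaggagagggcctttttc
Col6a2: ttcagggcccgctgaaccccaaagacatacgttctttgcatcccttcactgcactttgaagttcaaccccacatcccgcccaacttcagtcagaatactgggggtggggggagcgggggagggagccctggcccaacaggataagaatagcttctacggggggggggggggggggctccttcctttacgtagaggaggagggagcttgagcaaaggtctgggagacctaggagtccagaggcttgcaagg
RefSeq windows of 300 bases around the start of the gene (GRCm38.p6, 250 bases before and 50 after) were found for 35 of the 44 genes, in 38 windows. TTCNNNGAA, the spaced palindrome that STAT factors, the effectors of IL6 signalling, are known to bind, was searched on both strands and stood in the windows of 2 collagen genes, Col28a1 and Col6a5, and in 8.30% of all 32851 windows. TGANTCA, the AP-1 motif, stood in the window of Col6a1 alone and in 7.81% of all windows. CCAAT stood in the windows of 13 collagen genes and in 37.4% of all windows. TATAAA stood in those of 5, Col10a1, Col11a2, Col13a1, Col17a1 and Col3a1, and in 13.6% of all windows. The capitals that would mark any of these motifs are absent from the 3 stretches printed here, since the AP-1 match of Col6a1 lay outside the printed bases. These counts describe letters in windows of fixed length and say nothing of binding.

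Recovered read totals on genes ran from 49.3 M to 88.8 M per sample for the cultured cells and from 52.0 M to 79.2 M for the livers. They are known only up to a common factor per table, so they compare samples and do not give absolute numbers of fragments. Fresh hepatocytes differed from the cultures across the whole transcriptome: the median FPKM over tested genes was 3.19 to 3.60 in hepatocytes and 10.8 to 11.4 at D3, and the median log2 fold change of all 12328 tested genes at D3 was 1.14. Counts of called collagen genes against hepatocytes are therefore given beside the median over all tested genes and again after quantile normalization. The changed value is given for some genes only. The labelled cell types were checked with marker lists. The summed level of 9 hepatocyte markers was 76421 to 82510.0 FPKM in hepatocytes, 609 to 723 at D3 and 60099 to 81447 in the IL6-iMHs. The summed level of 4 Y-linked genes was 33.9 to 38.7 FPKM in clone-1 IL6-iHPCs and 0 in every clone-1 IL6-iMH sample. Those genes were also at 0, or at most 0.0157 FPKM in sum, in the IL6-iHPCs and IL6-iMHs of mouse-1 and mouse-2, while hepatocytes stood at 5.46 to 7.21, D3 cultures at 70.5 to 81.4 and D14 cultures at 53.4 to 62.3. The libraries labelled clone-1 therefore did not match each other in Y-linked RNA, so IL6-iMHs and IL6-iHPCs of that label may not be the same cells. The counts of called genes over the lines are given with and without it, as are the values that cross 2-fold or move by over 1.5 times. The passaged lines of mouse-1 and mouse-2 differed in the same RNA from hepatocytes and from the D3 and D14 cultures, so the donor and the passage cannot be told apart in those comparisons.

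Of the 44 genes listed for the cultured cells, 16 reached 1 FPKM in at least 3 samples and were tested, against 16 of the 42 in livers. In the cultures these were 5 of 11 fibrillar chains, 3 of 6 type IV chains, 2 of 6 type VI chains, 3 of 9 fibril-associated chains, both multiplexins and 1 of the 2 other chains. None of the 4 membrane-spanning, 3 short-chain network and 1 anchoring fibril chains passed. The 28 that did not pass had readings above 0 in at least 1 sample each, and Col9a3 was the only one to reach 1 FPKM in any sample, with a highest reading of 1.29 FPKM at D3. The main fibril chains of scar tissue were among those not tested in the cultures: Col1a1 read at most 0.407 FPKM, Col1a2 at most 0.114 and Col3a1 at most 0.956 in all 33 samples. In the livers the tested genes were 7 fibrillar chains, Col4a1, Col4a2, the type VI chains Col6a1, Col6a2 and Col6a3, the fibril-associated Col14a1, the membrane-spanning Col13a1 and both multiplexins. Among the 26 genes not tested in livers, 3 reached 1 FPKM in any sample, and the highest was Col12a1 with 2.81 FPKM in a PHX-24h liver. Col12a1 read 0.239, 0.275 and 0.167 FPKM in normal liver, 0.827, 0.698 and 0.806 at 6 h and 0.863, 0.908 and 2.81 at 24 h, and both early times stood above all normal samples without a test. The counts of called collagen genes below all come from the tested 16 of each table, and the shares beside them are shares of all tested genes.

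Fresh hepatocytes expressed 1 collagen gene far above the rest. Col18a1 made up 92.0 to 92.9% of their summed collagen FPKM, which was 129 to 172 per sample. At D3 the summed level was 125 to 143 FPKM and Col18a1 made up 19.8 to 22.5% of it, while Col4a1 and Col4a2 together made up 50.2 to 52.7%. The total of hepatocytes and D3 cultures overlapped, but the makeup did not. At D14 the total was 198 to 204 FPKM with Col18a1 at 38.5 to 42.0%. In passaged IL6-iHPCs Col18a1 made up from 25.0% in mouse-2 to 51.3% in clone-1. In the IL6-iMHs it again held the larger part, from 58.6% in clone-1 to 84.9% in mouse-1 at P10. Normal livers resembled hepatocytes in this respect, with a total of 164 to 219 FPKM and a Col18a1 share of 71.3 to 78.1%. The share at 6 h after PHX was 54.7 to 60.4%.

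**Figure D1:**
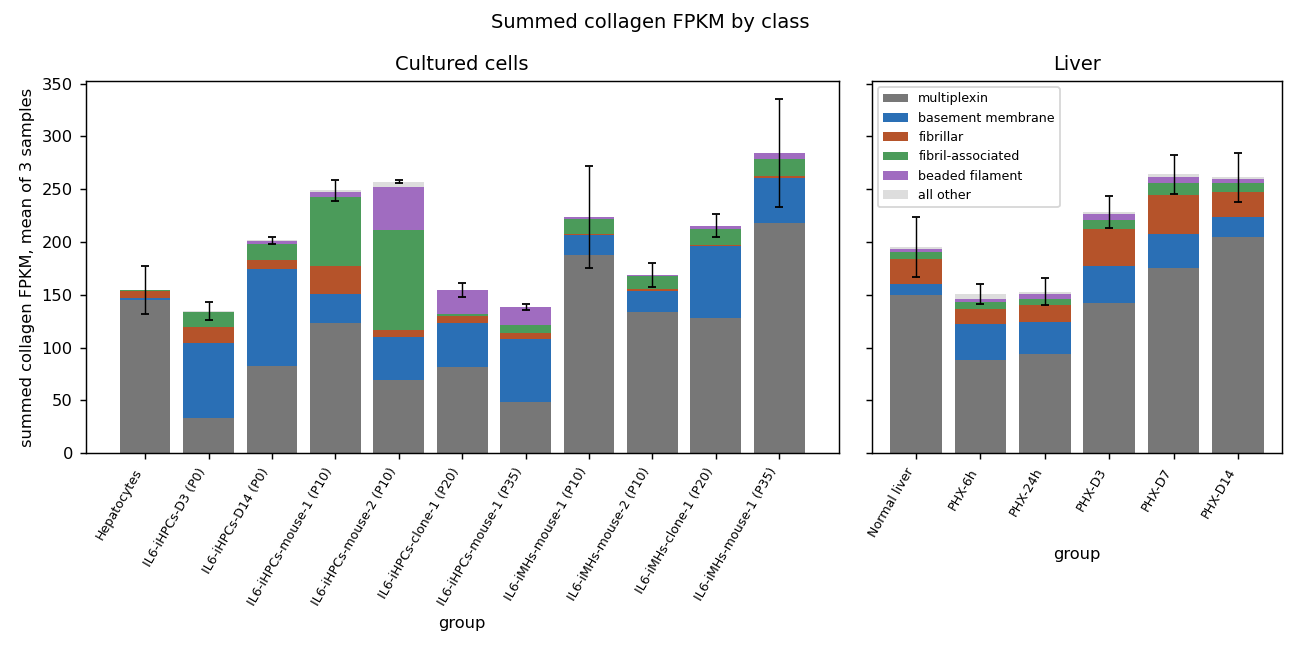
Summed FPKM of collagen genes by structural class in each group; bars stack the means of 3 samples on a linear axis from 0, and the whiskers give the SD of the total. The multiplexin part, nearly all Col18a1, fills most of the bars of hepatocytes, IL6-iMHs and normal liver, and the type IV part is largest at D3, at D14 and in IL6-iMHs of clone-1.

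At day 3 of culture the type IV chains Col4a1 and Col4a2 rose and Col18a1 fell. Of the 16 tested collagen genes, 8 were higher and 2 lower than in hepatocytes. A call needed an adjusted p under 0.05 and at least a 2-fold change. Over all tested genes 53.9% were called higher and 12.1% lower. The median log2 fold change was 0.68 over the 16 tested collagen genes and 1.14 over all tested genes. Genes that were near 0 in hepatocytes passed the filter only through the cultures and could only be higher there. After quantile normalization, which moved the all-gene median to 0.17, 5 collagen genes were called higher and 2 lower.

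Col4a1 and Col4a2 encode the α1 and α2 chains of the ubiquitous basement membrane network. Col4a1 read 0.808, 0.874 and 0.926 FPKM in the hepatocyte samples and 45.1, 40.1 and 48.1 at D3. Every D3 sample stood far above every hepatocyte sample, with a log2 fold change of 4.60 ± 0.10 (SE) on the log2(FPKM + 1) scale, a 24.2-fold difference (adjusted p = 6.9e-27). It was 3.53 after quantile normalization. Col4a2 went from 0.708, 0.706 and 0.569 FPKM to 26.6, 22.9 and 27.2, without overlap, which gave 3.997 ± 0.12 and an adjusted p of 2.4e-23. Col4a5, an X-linked chain of the second type IV network, went from 0.134, 0.0918 and 0.0713 FPKM to 1.33, 1.45 and 1.59. Its log2 fold change of 1.16 ± 0.10 dropped to 0.43 after quantile normalization, which is less than 2-fold.

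Col18a1 showed the opposite course. Its readings were 152, 159.8 and 119 FPKM in hepatocytes and 28.3, 28.2 and 28.2 at D3, so that the D3 samples were tight and all below the lowest hepatocyte sample. The log2 fold change was -2.29 ± 0.12 (adjusted p = 1.0e-17), a fall of 4.90-fold. The other gene that fell was Col5a3, which encodes a minor fibrillar chain of type V. It read 3.95, 3.66 and 3.07 FPKM in hepatocytes and 0.134, 0.110 and 0.208 at D3, with a log2 fold change of -1.98 ± 0.09 (adjusted p = 6.8e-19).

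The other genes that rose at D3 came from several classes. Col12a1, a fibril-associated chain found in tissues under load, went from 0.0868, 0.135 and 0.0839 FPKM to 5.36, 5.04 and 6.22 and changed by 2.57 ± 0.17 (adjusted p = 8.6e-15). Col20a1, another fibril-associated chain, averaged 0.310 ± 0.0694 FPKM (SD, n = 3) in hepatocytes and 6.67 ± 0.263 at D3. Col11a2, a fibrillar chain best known from cartilage, averaged 0.0243 ± 0.00791 and 4.15 ± 0.0830 FPKM. For Col11a2 the change was 2.33 ± 0.04 (adjusted p = 5.1e-30). Col27a1, a fibrillar chain also known from cartilage, read 2.96, 3.23 and 2.58 FPKM in hepatocytes and 10.3, 8.59 and 11.3 at D3. It changed by 1.49 ± 0.08 in FPKM but by only 0.0037 after quantile normalization. Col15a1, the other multiplexin, rose by 1.18 ± 0.07 in FPKM, and its direction reversed to -0.41 after quantile normalization.

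At day 14 the same pair of type IV chains had the largest rises and Col6a1 was called higher as well. Against hepatocytes 7 of the 16 tested genes were higher and 1 was lower, where 50.0% and 12.9% of all tested genes were called. The medians were 0.92 for tested collagen genes and 1.00 for all genes, and quantile normalization gave 5 higher and 2 lower, with Col20a1 and Col5a1 dropping under 2-fold. Col4a1 read 56.4, 53.3 and 57.0 FPKM and Col4a2 35.2, 32.7 and 35.9, which were 4.92 ± 0.10 and 4.42 ± 0.12 above hepatocytes on the log2 scale. Those adjusted p-values were 1.3e-27 and 2.2e-24. Col12a1 reached 9.83, 9.86 and 11.05 FPKM, a change of 3.35 ± 0.17 (adjusted p = 1.3e-17). Col5a3 remained low, with 0.219, 0.153 and 0.251 FPKM and a change of -1.91 ± 0.09 (adjusted p = 1.9e-18). Col18a1 stood at 81.2, 83.2 and 78.5 FPKM, below every hepatocyte sample, and its change of -0.81 ± 0.12 was less than 2-fold.

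Between D3 and D14, 3 of the 16 tested genes were higher and 3 lower, where 5.12% and 5.05% of all tested genes were called. Col18a1 rose by 1.49 ± 0.12 (adjusted p = 2.7e-12), and all D14 samples stood above all D3 samples. Col6a1, which encodes the α1 chain of type VI, read 0.00884, 0 and 0.0252 FPKM at D3 and 1.93, 1.44 and 1.92 at D14, with a change of 1.45 ± 0.07 (adjusted p = 3.5e-17). Col16a1, a fibril-associated chain of the cell surface, read 0.156, 0.122 and 0.194 FPKM and then 1.90, 2.25 and 2.29, a change of 1.44 ± 0.13. The genes that fell were Col11a2 by 1.35 ± 0.04, Col20a1 by 1.23 ± 0.08 and Col15a1 by 1.01 ± 0.07 on the log2 scale. The Col15a1 change was just past 2-fold and dropped to -0.87 after quantile normalization, and to -0.97 without D14 replicate 1. All 3 had risen in FPKM at D3 and by D14 had moved back towards the hepatocyte level.

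**Figure D2:**
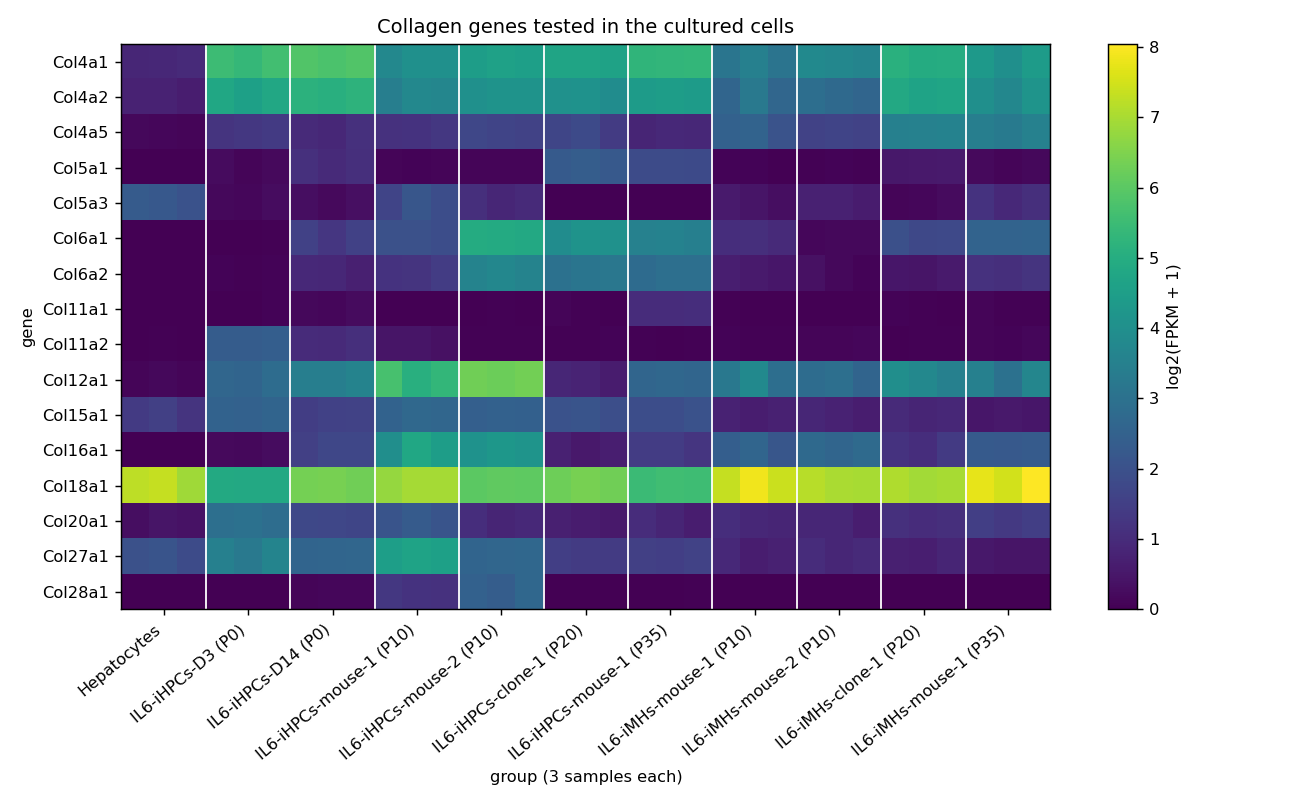
log2(FPKM + 1) of the 16 tested collagen genes in all 33 cell samples, 3 columns per group, on a colour scale from 0 (dark) to 8 (yellow). Col18a1 is brightest in hepatocytes and IL6-iMHs, Col4a1 and Col4a2 brighten from D3 on, and Col6a1, Col6a2, Col12a1 and Col16a1 differ between the passaged lines.

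In passaged IL6-iHPCs the type IV chains remained above hepatocytes and the type VI chains, Col12a1 and Col16a1 reached their highest levels. Over the 4 lines together 8 of the 16 tested genes were higher than in hepatocytes and 1 was lower. Over all tested genes the shares were 48.1% and 11.3%. The medians were 1.00 over tested collagen genes and 0.93 over all genes. Quantile normalization gave 6 higher and 1 lower, since Col4a5 and Col5a1 dropped under 2-fold. Without the clone-1 line 10 genes were called in place of 9, since Col28a1 (1.25) and Col18a1 (-1.01) passed 2-fold and Col5a1 did not.

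Type VI collagen is built from α1 and α2 chains and a further, longer chain. Col6a1 read at most 0.0162 FPKM in hepatocytes. It read 2.96, 3.00 and 2.75 FPKM in mouse-1 at P10, 30.1, 29.1 and 27.7 in mouse-2, 13.9, 16.5 and 15.7 in clone-1 and 10.6, 10.8 and 10.2 in mouse-1 at P35. The lines did not overlap with each other or with hepatocytes, and the lowest of them was mouse-1 at P10. Over the lines the change against hepatocytes was 3.60 ± 0.05 (adjusted p = 7.9e-31) and against D14 it was 2.14 ± 0.05 (adjusted p = 3.4e-24). Col6a2 followed the same order of lines, with 1.26, 1.2960 and 1.70 FPKM in mouse-1 at P10, 11.1, 12.3 and 11.02 in mouse-2, 6.96, 7.69 and 8.13 in clone-1 and 6.03, 6.68 and 6.59 in mouse-1 at P35. Its change was 2.71 ± 0.06 against hepatocytes and 1.89 ± 0.06 against D14. The remaining type VI chains, Col6a3 to Col6a6, read at most 0.102 FPKM in any cell sample, so no such further chain was measured near the level of Col6a1 and Col6a2.

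Col12a1 and Col16a1 were high in the P10 lines and low in clone-1 and in mouse-1 at P35. Col12a1 read 50.9, 32.98 and 39.5 FPKM in mouse-1 at P10 and 78.4, 73.6 and 79.5 in mouse-2, but 0.833, 0.753 and 0.545 in clone-1 and 5.17, 5.44 and 5.18 in mouse-1 at P35. Col16a1 read 14.6, 26.9 and 21.2 FPKM in mouse-1 at P10, 16.2, 18.2 and 16.9 in mouse-2, 0.676, 0.479 and 0.598 in clone-1 and 1.68, 1.68 and 1.35 in mouse-1 at P35. For both genes the P10 lines stood above every other cell group, and clone-1 was the lowest passaged line. The P10 lines did not overlap for Col12a1 but did for Col16a1. The changes over all lines against hepatocytes were 3.63 ± 0.13 for Col12a1 and 2.65 ± 0.10 for Col16a1, and without clone-1 they were 4.63 and 3.31. Against D14, Col12a1 changed by 0.28 ± 0.13 (adjusted p = 0.057), an average over lines that stood on both sides of D14, and by 1.28 without clone-1.

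Against D14, 3 of the 16 tested genes were higher and 2 lower in the passaged cells. Over all tested genes the shares were 4.89% and 6.57%. The third rise, in Col16a1, was 1.00 ± 0.10 and fell under 2-fold in several alternatives, for example to 0.89 on a TPM scale and to 0.94 without D14 replicate 1. The falls were in Col4a1, by 1.21 ± 0.08 on the log2 scale (adjusted p = 2.1e-14), and in Col4a2, by 1.10 ± 0.09. Col4a1 read from 12.4 to 38.6 FPKM in the 12 passaged samples, all below the lowest D14 sample and all above the highest hepatocyte sample. Without clone-1, 7 genes were called in place of 5, with Col12a1 and Col28a1 added, and the change of Col16a1 was 1.67.

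Several fibrillar and minor chains were high in 1 or 2 of the 4 lines. Col5a1, which encodes the main type V chain, averaged 3.93 ± 0.235 FPKM (SD, n = 3) in clone-1 and 2.52 ± 0.0491 in mouse-1 at P35, but 0.0747 ± 0.00764 and 0.0739 ± 0.00429 in the P10 lines. Its change against hepatocytes of 1.07 ± 0.03 was 0.66 without clone-1, under 2-fold. Col5a3 had 2.12, 3.43 and 2.75 FPKM in mouse-1 at P10, 1.12, 0.807 and 0.955 in mouse-2 and at most 0.0197 FPKM in clone-1 and in mouse-1 at P35. Col28a1 averaged 4.79 ± 0.639 FPKM in mouse-2 and 1.32 ± 0.150 in mouse-1 at P10 and read at most 0.103 FPKM in every other group. Col11a1, a fibrillar chain that pairs with Col11a2 in cartilage, averaged 1.05 ± 0.0156 FPKM in mouse-1 at P35 and read at most 0.178 FPKM elsewhere. Col27a1 was highest in mouse-1 at P10, with 21.8, 24.2 and 23.0 FPKM.

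**Figure D3:**
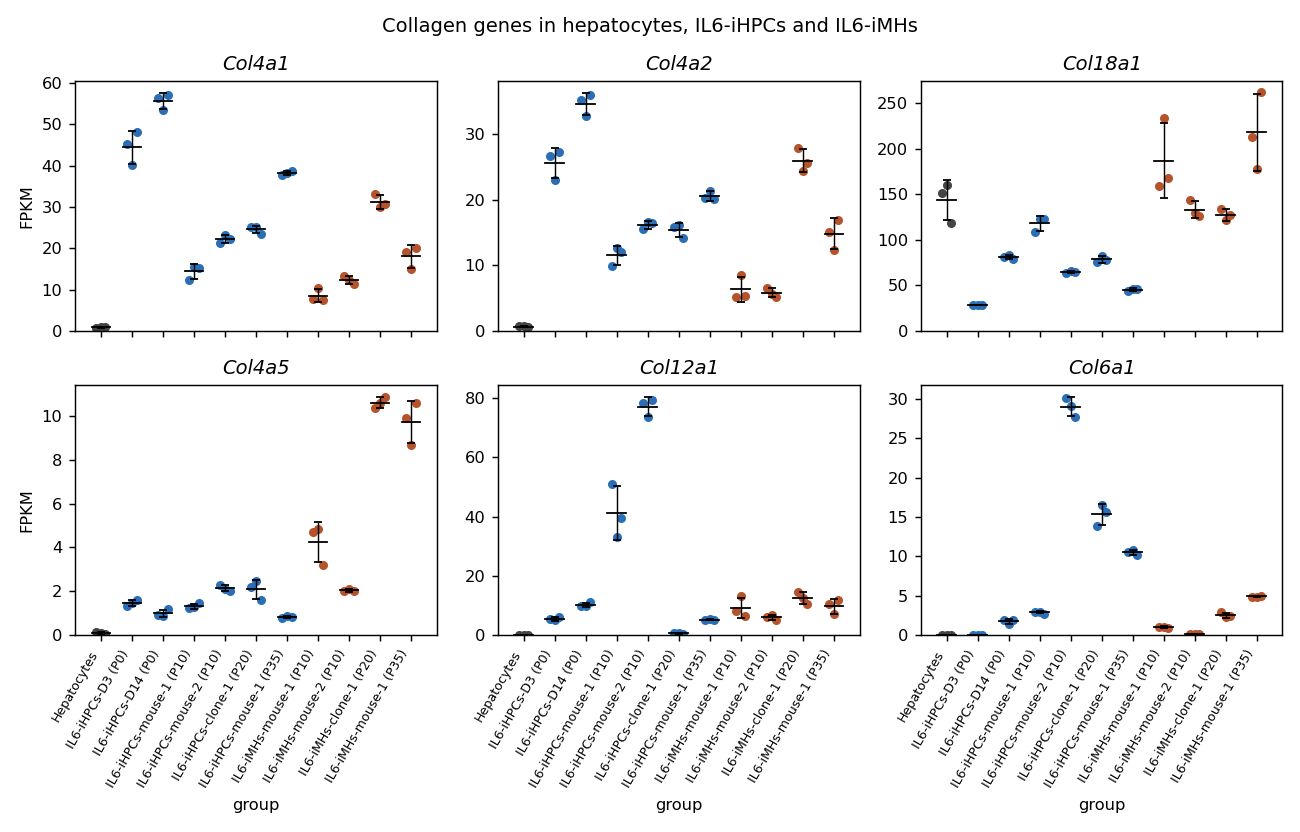
FPKM of 6 collagen genes in the 11 cell groups; points are the 3 samples, horizontal lines the means and bars the SD. Col4a1 peaks at D3 and D14, Col18a1 is lowest at D3, and Col12a1 reaches 79.5 FPKM in mouse-2 but stays below 1 FPKM in IL6-iHPCs of clone-1.

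Mouse-1 was profiled at P10 and P35, which compares early with late passage of 1 line. Of the 16 tested genes, 5 were higher at P35 and 7 lower, where 24.8% and 8.94% of all tested genes were called. The medians were -0.55 over the tested collagen genes and 0.36 over all genes, and quantile normalization gave 3 higher and 7 lower. The largest falls were in Col27a1, from the P10 readings above to 1.85, 1.82 and 2.00 FPKM, and in Col16a1. They amounted to -3.05 ± 0.08 (adjusted p = 2.6e-24) and -3.05 ± 0.13 (adjusted p = 4.1e-19). Col12a1 fell by 2.73 ± 0.17, Col5a3 by 1.90 ± 0.09 and Col18a1 by 1.36 ± 0.12 on the log2 scale, and Col20a1 and Col28a1 were also lower. Col18a1 read 109, 123 and 122 FPKM at P10 and 43.9, 46.4 and 45.7 at P35. The largest rise was in Col5a1, by 1.71 ± 0.04 (adjusted p = 5.5e-25). Col6a2 rose by 1.63 ± 0.07, Col6a1 by 1.56 ± 0.07 and Col4a1 by 1.35 ± 0.10, and the changes of Col4a1 and Col11a1 dropped under 2-fold after quantile normalization. As 1 line was followed, passage and other differences between those cultures cannot be told apart.

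Maturation lowered the type VI chains and raised Col18a1 and Col4a5. Over the 4 lines, 2 of the 16 tested genes were higher in IL6-iMHs than in the IL6-iHPCs of the same labels and 4 were lower. Over all tested genes the shares were 6.68% and 21.4%. The medians were -0.49 and -0.40. The count was 8 in place of 6 without clone-1, since Col12a1 (-1.60) and Col28a1 (-1.25) were then called lower.

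Col6a1 fell to 1.07, 1.10 and 0.942 FPKM in IL6-iMHs of mouse-1 at P10, 0.107, 0.118 and 0.131 in mouse-2, 2.91, 2.31 and 2.43 in clone-1 and 4.84, 4.90 and 5.04 in mouse-1 at P35. Each line was below the IL6-iHPCs of its label without overlap. Over the lines the change was -2.21 ± 0.03 (adjusted p = 5.4e-30), and it ran from -0.94 ± 0.07 in mouse-1 at P10 to -4.74 ± 0.07 in mouse-2. Col6a2 changed by -2.11 ± 0.04 (adjusted p = 1.1e-28), again lower in all 4 lines. Col27a1 fell by 1.82 ± 0.04 and Col15a1 by 1.54 ± 0.04 on the log2 scale, and both were below the matching IL6-iHPCs in every line.

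Col18a1 read 159, 234 and 168 FPKM in IL6-iMHs of mouse-1 at P10, 143, 129.7 and 126 in mouse-2, 133, 121 and 127 in clone-1 and 213, 178 and 262 in mouse-1 at P35. Those readings lay above the matching IL6-iHPCs in each line. The change over lines was 1.14 ± 0.06 (adjusted p = 1.3e-17), and it was 0.86 on a TPM scale, under 2-fold. Col4a5 read 4.68, 4.84 and 3.19 FPKM in mouse-1 at P10, 10.4, 10.6 and 10.8 in clone-1 and 9.89, 8.66 and 10.6 in mouse-1 at P35. In those 3 lines it was above the IL6-iHPCs, whose readings were at most 2.47 FPKM. Mouse-2 did not share the change, with 2.28, 2.11 and 2.01 FPKM before and 2.01, 2.11 and 2.01 after maturation. The change over lines was 1.39 ± 0.05 (adjusted p = 1.4e-21).

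The change on maturation differed between lines for all 16 tested collagen genes by an F test of the line-by-maturation interaction, which 96.3% of all tested genes also passed. Col12a1 differed most. It changed by -2.06 ± 0.17 in mouse-1 at P10 and by -3.49 ± 0.17 in mouse-2, but by 2.98 ± 0.17 in clone-1 and by 0.76 ± 0.17 in mouse-1 at P35. The IL6-iMH readings of Col12a1 lay between 5.05 and 14.7 FPKM in all 4 lines, a narrower range than that of the IL6-iHPCs. Col5a3 fell in mouse-1 at P10 by 1.45 ± 0.09 on the log2 scale and rose in the same line at P35 by 1.06 ± 0.09. Without clone-1, 15 of the 16 genes passed the F test, and the rise of Col12a1 past 2-fold was in clone-1 alone: over the other lines its change ran from -3.49 to 0.76, still the widest range of the 16.

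**Figure D4:**
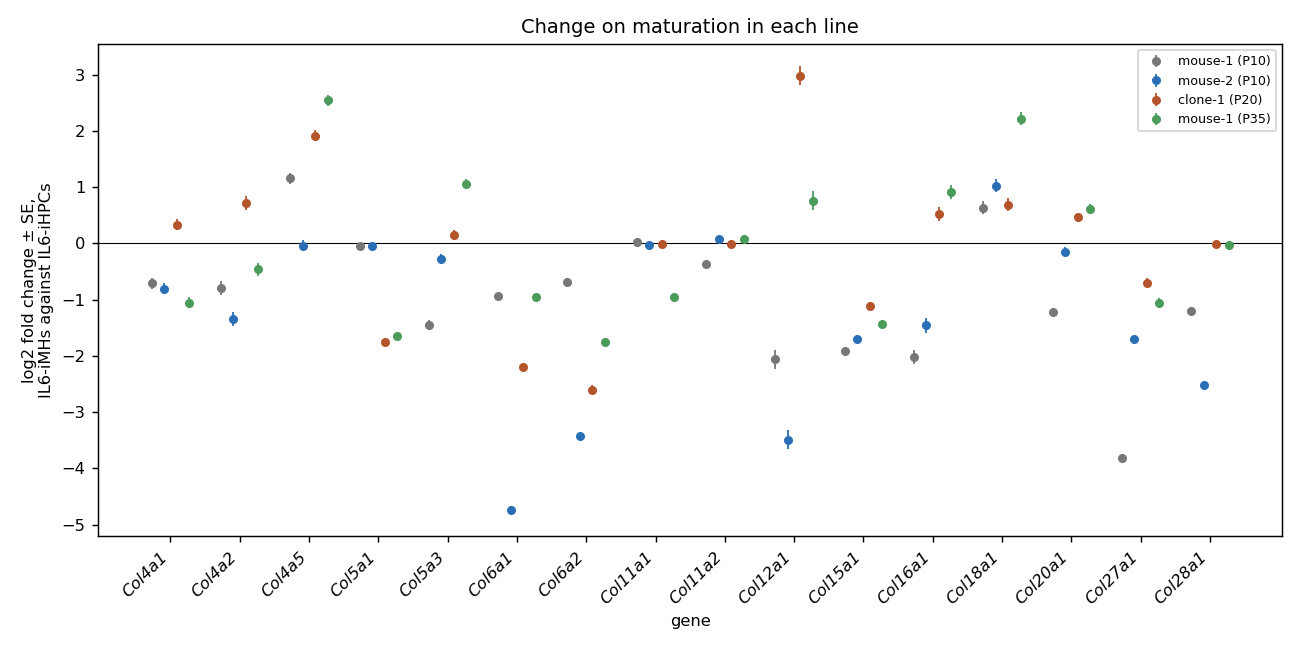
log2 fold change of IL6-iMHs against IL6-iHPCs for the 16 tested collagen genes in each of the 4 lines, with bars for the SE of the limma fit; 0 means no change. Col6a1 and Col6a2 lie below 0 in all lines and Col18a1 above 0 in all lines, while Col12a1 runs from -3.49 to 2.98.

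The matured cells were also set against fresh hepatocytes. Col18a1 differed by 0.18 ± 0.09 over the lines (adjusted p = 0.07), and the readings of both kinds of cell overlapped. All samples of mouse-1 at P35 (213, 178 and 262 FPKM) stood above the highest hepatocyte sample (159.8). Mouse-1 at P10 read 159, 234 and 168 FPKM, and mouse-2 and clone-1 lay within the hepatocyte range. The type IV chains and Col12a1 did not return to the hepatocyte level. Of the 16 tested genes, 6 were higher in IL6-iMHs and 2 lower, where 24.8% and 7.79% of all tested genes were called. The medians were 0.40 and 0.46. Quantile normalization gave 6 higher and 3 lower. Col12a1 was higher by 3.18 ± 0.13 (adjusted p = 2.6e-19), Col4a1 by 3.15 ± 0.08 (adjusted p = 3.2e-25), Col4a2 by 2.85 ± 0.09 and Col4a5 by 2.60 ± 0.08. Col4a1 read from 7.45 to 33.1 FPKM in the 12 IL6-iMH samples, against at most 0.926 in hepatocytes. Col16a1 and Col6a1 were also higher. Col5a3 was lower, with a change of -1.59 ± 0.07 (adjusted p = 1.0e-18), and so was Col27a1, with -1.24 ± 0.06. Without clone-1 the count was again 8.

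Markers of other liver cells were measured beside these results. The summed level of 14 stellate cell and fibroblast markers was 2.63 to 2.80 FPKM in hepatocytes, 1.63 to 2.03 at D3, 1.55 to 2.20 at D14 and at most 0.50 in any passaged or matured sample, and every one of these genes averaged under 1 FPKM in every cultured group. The 12 endothelial markers summed to 28.9 to 32.5 FPKM in hepatocytes, 15.5 to 18.3 at D3 and 2.95 to 3.52 at D14. In passaged cells they ran from 1.60 in mouse-1 at P10 to 5.64 in clone-1, where Col4a1 read 25.1, 25.2 and 23.5 FPKM. Mouse-1 at P35 summed to 2.21 to 2.55 and had the highest Col4a1 of the passaged lines, with 37.7, 38.3 and 38.6. In IL6-iMHs they summed to 0.985 to 1.23 in mouse-2, where Col4a1 read 13.2, 12.3 and 11.5 FPKM. They summed to 5.71 to 6.23 in clone-1, where Col4a1 read 33.1, 29.9 and 30.7. IL6-iMHs of mouse-1 summed to 1.67 to 1.94 at P10, with Col4a1 at 7.65, 10.3 and 7.45. At P35 they summed to 1.37 to 1.64, with Col4a1 at 19.1, 14.9 and 20.1. The part of endothelial cells in the type IV readings was not tested. The 10 macrophage and leukocyte markers summed to 14.0 to 14.98 FPKM in hepatocytes and 21.0 to 26.7 at D3, where Cd68 made up nearly all of the sum. The 8 biliary markers summed to 6.69 to 9.73 FPKM in hepatocytes. In passaged cells they summed to 7447 to 8476 in mouse-1 at P10 and 9905 to 11023 in mouse-2. The sums were 4406 to 5207 in clone-1 and 2717 to 2810 in mouse-1 at P35. Mouse-2 also had the highest Col6a1 and Col12a1. Mouse-1 at P10, with the next highest sums, had the lowest Col6a1 of the passaged lines. The study found Ck19, which it named a marker of both progenitors and biliary cells, in IL6-iHPCs and in clones of single hepatocytes. The part of biliary cells in these readings was not tested. The 5 mesothelial markers summed to 0 to 0.0134 FPKM in hepatocytes and, in passaged cells, to 69.6 to 75.7 in mouse-1 at P10, 318 to 325 in mouse-2, 328 to 365 in clone-1 and 247 to 256 in mouse-1 at P35. In each of these passaged groups 4 of the 5 averaged under 1 FPKM, so 1 gene made up nearly all of the sum. At D14 the sum was 87.9 to 112 FPKM, and in IL6-iMHs it ran from 55.1 in mouse-2 to 165 in mouse-1 at P35. Among passaged cells clone-1, with the highest Col5a1, had the highest sums. Mouse-2, with low Col5a1 and Col11a1, stood above mouse-1 at P35, where both were higher. The part of such cells in these readings was not tested.

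The genes that make, export, cross-link, degrade and bind collagen were followed as 6 lists, and their counts are given over the members tested. At D3, 7 of 17 tested genes of folding and modification in the endoplasmic reticulum (ER), of 19 listed, were higher than in hepatocytes and 2 lower. Of 8 export genes, all tested, 5 were higher and 1 lower, and of 7 tested genes of processing and cross-linking, of 13 listed, 6 were higher. Over all tested genes the shares were 53.9% higher and 12.1% lower, and genes near 0 in hepatocytes passed the filter only through the cultures, with changes whose size depends on the pseudocount. Lox, the lysyl oxidase that cross-links collagen and elastin, was listed at 0 in every hepatocyte sample and averaged 139 FPKM at D3. Its relative Loxl2 averaged 0.0428 and 6.64 FPKM. Among folding genes Crtap, a partner of prolyl 3-hydroxylase, rose by 2.45 ± 0.08 and P4ha2, a catalytic subunit of prolyl 4-hydroxylase, by 2.42 ± 0.08. P4hb, the shared β subunit, fell by 2.00 ± 0.06. Among export genes Mia2 and Mia3, which load procollagen into large vesicles, rose by 2.67 ± 0.12 and 2.02 ± 0.12, while the coat GTPase Sar1b fell by 2.05 ± 0.11.

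Genes that degrade or bind collagen were called as well. At D3, 3 of 5 tested genes of degradation and its inhibitors, of 11 listed, were higher. Timp1, a metalloproteinase inhibitor, was listed at 0 in every hepatocyte sample and averaged 40.8 FPKM at D3, and the membrane collagenase Mmp14 rose by 3.94 ± 0.07. Of 5 tested receptors, of 9 listed, 4 were higher, among them the collagen receptor kinase Ddr1, from a mean of 0.0104 to 45.4 FPKM, and Itgb1, the β1 integrin subunit, by 2.27 ± 0.07. Of 5 tested fibril-binding matrix proteins, of 7 listed, 1 was higher, fibronectin (Fn1), by 4.96 ± 0.24. At D14 the counts of higher genes were 11 of 17, 5 of 8, 5 of 7, 4 of 5, 4 of 5 and 2 of 5 tested in the same order, where 50.0% of all tested genes were higher, and 1 folding gene and 1 export gene were lower. Plod2, a lysyl hydroxylase, averaged 0.00555 FPKM in hepatocytes and 10.9 at D14. The inhibitor Timp2 averaged 0.0960 and 43.2 FPKM, and the small proteoglycan decorin (Dcn) rose by 4.06 ± 0.13.

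In passaged cells 9 of 17, 5 of 8, 5 of 7, 4 of 5, 4 of 5 and 3 of 5 tested list genes were above hepatocytes, where 48.1% of all tested genes were, and 1 was below, Sar1b with -1.17 ± 0.08. On maturation 2, 2, 0, 3, 2 and 1 tested genes of the same lists were lower, where 21.4% of all tested genes were, and 1 folding and 1 export gene were higher, where 6.68% were. The export gene was Sar1b, with 1.58 ± 0.05. The largest falls were in Dcn, by 2.48 ± 0.07, and in Timp1, by 2.33 ± 0.04 on the log2 scale. Tmem38b, an ER potassium channel known for its role in collagen synthesis in bone, rose by 2.01 ± 0.04. Between P10 and P35 of mouse-1 the matrix protein Sparc rose by 4.58 ± 0.07 and P4ha3 by 3.73 ± 0.06, while Fn1 fell by 2.96 ± 0.24.

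In livers after PHX Col4a1 was called higher at each time up to day 7, and Col5a3 was called lower at each time but day 7. In such bulk samples fewer cells of a type and less RNA per cell cannot be told apart. At 6 h, 2 of the 16 tested genes were higher than in normal liver and 1 was lower. Over all tested genes the shares were 4.78% and 11.5%. The medians were -0.10 over the 16 tested collagen genes and -0.28 over all 11114 tested genes. At 24 h, 1 was higher and 1 lower, where 3.74% and 4.16% of all genes were called, with medians of 0.08 and -0.02.

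Col4a1 read 6.68, 4.62 and 5.87 FPKM in normal liver, 27.8, 19.4 and 29.3 at 6 h and 11.7, 27.3 and 27.8 at 24 h. All early samples were above all normal samples, and the change was 1.97 ± 0.35 at 6 h (adjusted p = 2.8e-04) and 1.71 ± 0.35 at 24 h (adjusted p = 0.0019). Col4a2 read 5.83, 3.55 and 5.09 FPKM in normal liver, 9.03, 7.86 and 6.37 at 6 h and 6.17, 8.15 and 9.36 at 24 h. Its change at 6 h was 0.60 ± 0.22 (adjusted p = 0.031), under 2-fold, so that the ratio of Col4a1 to Col4a2 went from 1.15 to 1.3009 in normal liver to 2.47 to 4.60 at 6 h. In the first culture that ratio was 1.14 to 1.63 in hepatocytes and 1.70 to 1.77 at D3.

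Col13a1, a membrane-spanning collagen of cell adhesion sites, read 1.24, 1.52 and 1.25 FPKM in normal liver and 3.87, 3.60 and 5.01 at 6 h. It rose by 1.13 ± 0.20 (adjusted p = 2.8e-04), without overlap, and averaged 2.24 ± 0.841 FPKM (SD, n = 3) at 24 h. Col5a3 read 7.01, 9.42 and 7.43 FPKM in normal liver, 1.08, 1.76 and 1.15 at 6 h and 1.54, 1.4001 and 0.970 at 24 h. It was lower at both times, with changes of -1.94 ± 0.22 (adjusted p = 7.5e-06) and -1.96 ± 0.22 (adjusted p = 2.7e-05). Col18a1 read 167, 117 and 159 FPKM in normal liver and 91.7, 95.1 and 76.8 at 6 h, all lower, with a change of -0.73 ± 0.18 (adjusted p = 0.003) that was under 2-fold. Col15a1 changed by -0.99 ± 0.22 (adjusted p = 0.0017), just under 2-fold, from a mean of 2.05 ± 0.664 to 0.543 ± 0.419 FPKM. At 6 h the 12 endothelial markers summed to 99.8 to 121 FPKM against 183 to 198 in normal liver and the macrophage and leukocyte markers to 73.0 to 137 against 178 to 264, and their part in these results was not tested.

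**Figure D5:**
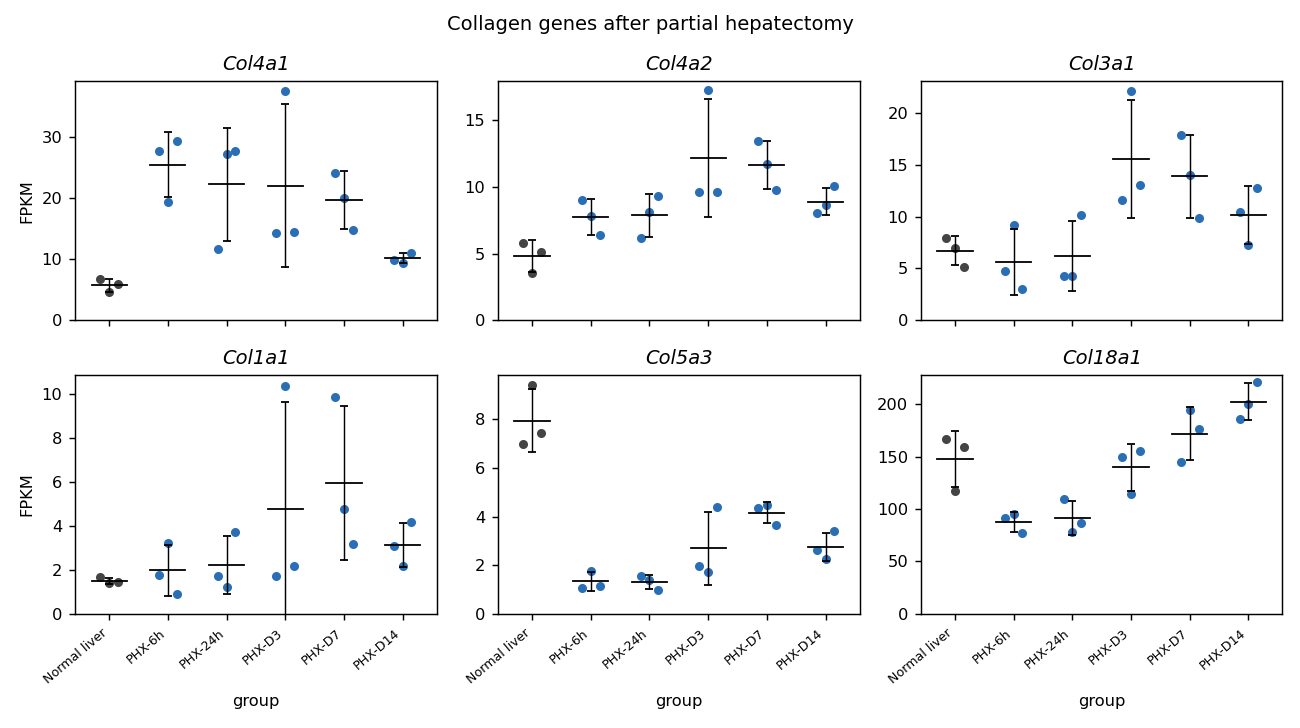
FPKM of 6 collagen genes in normal liver and at 5 times after PHX; points are the 3 samples, horizontal lines the means and bars the SD. Col4a1 is raised from 6 h to day 7, Col5a3 reads lower at every time, and 1 of the 3 livers at day 3 stands well above the others for Col4a1, Col4a2, Col3a1 and Col1a1.

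At days 3 and 7 fibrillar chains joined Col4a1 and Col4a2. At day 3, 3 of the 16 tested genes were higher and 1 was lower. Over all tested genes the shares were 3.33% and 2.49%, and the medians were 0.54 and 0.01. At day 7, 4 were higher and none was lower at 2-fold by limma, where 7.81% and 1.03% of all tested genes were called, with medians of 0.62 and 0.13. At an unadjusted p under 0.05, 12 of the 16 tested genes differed in either direction, and voom on the recovered reads called 1 lower. After quantile normalization 1 was higher and 2 were lower at day 7, so that the direction of the counts there depended on the scaling.

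Col4a1 read 14.2, 37.6 and 14.5 FPKM at day 3 and 24.2, 20.1 and 14.8 at day 7, above all normal samples, with changes of 1.65 ± 0.35 (adjusted p = 0.0033) and 1.61 ± 0.35 (adjusted p = 0.0026). Col4a2 read 9.62, 17.3 and 9.65 FPKM at day 3 and 13.4, 11.8 and 9.79 at day 7, also above all normal samples. Its change of 1.15 ± 0.22 at day 3 was 0.89 without day 3 replicate 2, under 2-fold, and that of 1.13 ± 0.22 at day 7 was 0.92 after quantile normalization. Col3a1, the type III chain of young connective tissue, read 7.92, 6.99 and 5.16 FPKM in normal liver, 11.6, 22.1 and 13.1 at day 3 and 17.9, 14.0 and 9.83 at day 7. Neither time overlapped with normal liver. The change of 1.07 ± 0.36 at day 3 (adjusted p = 0.037) was 0.81 without day 3 replicate 2 (adjusted p = 0.13), and that at day 7 was 0.93 ± 0.36 (adjusted p = 0.065).

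Col1a1 and Col1a2 encode the chains of type I collagen, the main fibril of scar. Col1a1 read 1.65, 1.39 and 1.42 FPKM in normal liver, 1.71, 10.3 and 2.18 at day 3 and 9.85, 4.77 and 3.15 at day 7, with 1 high liver on each day. The change at day 7 was 1.36 ± 0.48 (adjusted p = 0.042) and 0.98 without day 7 replicate 1 (adjusted p = 0.2). Col1a2 read 2.88, 2.58 and 2.41 and then 11.4, 6.28 and 5.69 FPKM at day 7, a change of 1.22 ± 0.33 (adjusted p = 0.011) that was 0.95 without the same liver (adjusted p = 0.068). Col5a2, which pairs with Col5a1 in type V fibrils, changed at day 3 by 0.99 ± 0.20 (adjusted p = 0.0028), just under 2-fold. Col14a1, a fibril-associated chain, read 5.30, 4.60 and 4.06 FPKM in normal liver and 13.4, 9.27 and 7.42 at day 7, a change of 0.93 ± 0.21 (adjusted p = 0.0036). The type VI chains averaged 1.63 ± 0.204 FPKM for Col6a1 and 1.02 ± 0.278 for Col6a2 in normal liver and 3.10 ± 1.39 and 1.84 ± 1.00 at day 7, and neither was called at any time.

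The 14 stellate cell and fibroblast markers summed to 55.1 to 70.3 FPKM in normal liver, 61.3 to 72.1 at day 3 and 84.0 to 129.5 at day 7. The macrophage and leukocyte markers reached 908 to 1301 FPKM at day 7 and the endothelial markers 239.6 to 368. The part of these cells in the higher fibrillar and type IV readings was not tested. Col5a3 was still lower at day 3, with a change of -1.34 ± 0.22 (adjusted p = 6.5e-04), while at day 7 it read 4.35, 4.48 and 3.66 FPKM and differed by -0.79 ± 0.22 (adjusted p = 0.013), under 2-fold.

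By day 14 the rises were no longer called. By limma none of the 16 tested genes was higher by 2-fold, as with voom, and 2 were lower. Over all tested genes the shares were 0.981% and 2.00%, and the medians were 0.31 and -0.08. At an unadjusted p under 0.05, 6 of the 16 tested genes differed in either direction. Col4a1 read 9.96, 9.46 and 11.1 FPKM, still above all normal samples, with a change of 0.74 ± 0.35 (adjusted p = 0.16). Col5a3 was lower, with 2.63, 2.26 and 3.40 FPKM and a change of -1.25 ± 0.22 (adjusted p = 0.0013), and Col27a1 changed by -1.11 ± 0.21 (adjusted p = 0.0023). Col27a1 read 3.79, 4.13 and 2.73 FPKM in normal liver and 1.10, 1.22 and 0.956 at day 14, and after quantile normalization its change was -0.94, under 2-fold. Col18a1 read 186, 200.4 and 221 FPKM, above every normal sample, with a change of 0.47 ± 0.18 (adjusted p = 0.083). Between day 14 and day 3 no collagen gene was called at 2-fold by limma, where 2.02% and 3.89% of all tested genes were higher and lower. At an unadjusted p under 0.05, 4 of the 16 tested genes differed, voom called 1, and Col5a2 and Col18a1 had adjusted p-values of 0.0032 and 0.029 with changes under 2-fold.

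Over the 6 lists, 44 genes were tested in livers, and 5, 4, 6 and 5 of them were higher at 6 h, 24 h, day 3 and day 7, where 4.78%, 3.74%, 3.33% and 7.81% of all tested genes were. Of 15 tested folding genes, of 19 listed, 1 was higher at 6 h, P3h1 by 1.06 ± 0.20, and 1 at 24 h, Serpinh1 by 2.03 ± 0.22 (adjusted p = 1.9e-05), the collagen-specific chaperone HSP47. The coat protein Sec24d rose by 2.03 ± 0.21 at 6 h, 1.08 ± 0.21 at 24 h and 1.08 ± 0.21 at day 3. Pcolce, which speeds the trimming of procollagen, was higher by 1.19 ± 0.35 at day 3 and 1.03 ± 0.35 at day 7. Among 7 tested genes of degradation and its inhibitors Timp3 rose by 1.49 ± 0.21 at 6 h, Timp1 by 2.02 ± 0.63 at 24 h, Mmp14 by 1.21 ± 0.26 at day 3 and Mmp9 by 1.67 ± 0.15 at day 7. Among 4 tested receptors Ddr1 was higher at day 3, by 1.18 ± 0.40, and Lair1, an inhibitory receptor of leukocytes, at day 7, by 1.68 ± 0.13. Fn1 was higher at 6 h, 24 h and day 3, most at day 3 with 1.73 ± 0.24 (adjusted p = 2.3e-04), and Sparc and Bgn at day 7. Day 3 replicate 2 differed from the other day 3 livers over all genes. The chi-square per gene of the recovered reads was 966 and 1140 against those livers and 293 between them. The day 3 calls of these lists are given with that replicate included. Between day 3 and day 14 the proteoglycans Lum and Dcn fell by 1.76 ± 0.21 and 1.36 ± 0.35 on the log2 scale.

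The tables of cells and livers were made separately, so the following pairs stand side by side without a test. Col4a1 was higher at D3 of culture by 4.60 ± 0.10 and at day 3 after PHX by 1.65 ± 0.35. For Col5a3 the changes were -1.98 ± 0.09 and -1.34 ± 0.22. Col18a1 changed in culture by -2.29 ± 0.12, and in liver by -0.73 ± 0.18 at 6 h and -0.07 ± 0.18 at day 3. Col6a1 and Col12a1, which were high in passaged lines, read at most 4.68 and 2.81 FPKM in any liver.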

How the data were processed

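PolyA RNA of cultured mouse liver cells and of mouse livers was sequenced. Per the labels, the authors aligned reads with TopHat 1.4.1 and quantified genes with Cufflinks 1.3.0 against mm10, as listed in the submitters' processing notes. The deposited values are FPKM per gene symbol, a unit taken from the Cufflinks note and the values, since the tables name none. In each of the tables, 2 symbols were listed more than once and were averaged. A day 7 table of transcription factors and other regulators held 1 collagen gene and entered no test.

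Values were tested with limma 3.58.1 in R 4.3.3 on log2(FPKM + 1), with a trended prior and 1 fit per table over all its groups, for genes that reached 1 FPKM in 3 samples or more, which left 12328 genes in cells and 11114 in livers. The pseudocount of 1 understates changes of low genes. A call required a Benjamini-Hochberg adjusted p under 0.05 over all tested genes and at least a 2-fold change. Low values of every gene stepped in whole units, taken as reads, within a tolerance of 0.05, from which relative depth was recovered up to a common factor. These reads were used with voom as an alternative. The fit was tested on simulated data: of 200 genes changed by 1.5 on the log2 scale, 200 were called among 8894 genes with 0 wrong calls in D3 against hepatocytes, and 185 (92.5%) among 10513 genes with 3 wrong calls in PHX-D3 against normal liver. The simulation gave all groups the mean of hepatocytes or normal liver, with normal noise and no shift of the whole transcriptome. Changed genes were drawn only from genes well above the floor there, so it does not cover calls of low genes or the effect of scaling.

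The collagen genes, the pathway and marker lists and the tests were chosen with earlier results of these data known. Genes named with all readings were collagen genes with a group mean of 10 FPKM or more in that table and the largest rise and fall past the thresholds in each comparison, and the other collagen genes are given by means, ranges and counts. Where other genes are given with all readings, they were chosen after their values were seen. From the pathway lists up to 2 rises and 2 falls per comparison were named. Gene positions came from GENCODE vM21 and promoter windows from RefSeq, both on GRCm38. Alternatives were another pseudocount, other filters, quantile normalization, a TPM scale, voom, other fold limits, a replicate block and each sample left out. The alternative without clone-1 was chosen after seeing the data.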

Additional observations from a re-analysis of the deposited data

Results flagged for a closer look

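The change on maturation, IL6-iMHs against IL6-iHPCs, differed between the 4 lines for each of the 16 tested collagen genes by the F test of the interaction, as it did for 96.3% of all tested genes. The size of the difference is given as the distance between the lowest and the highest log2 fold change over the lines. It was 6.47 for Col12a1 (4.25 without clone-1), 3.81 for Col6a1, 3.12 for Col27a1 and 2.94 for Col16a1. It was 2.74 for Col6a2, 2.58 for Col4a5, 2.52 for Col5a3 and 2.51 for Col28a1. It was 2.06 for Col4a2 (0.88 without clone-1), 1.84 for Col20a1, 1.70 for Col5a1 and 1.58 for Col18a1. It was 1.38 for Col4a1 (0.34 without clone-1), 0.98 for Col11a1, 0.80 for Col15a1 (0.48 without clone-1) and 0.45 for Col11a2. Without clone-1, whose libraries did not match each other in Y-linked RNA, the distances of the other 12 genes were within 1.5 times of those given. Called changes of opposite direction in different lines were found for Col5a3, and for Col12a1 only where clone-1 was included. The study described the samples of a line as technical repeats, so the F test may measure no more than differences between single cultures.

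The table of day 7 cultures, which entered no comparison, held 1 collagen gene, Col4a5. Primary hepatocytes read 0.217, 0.263 and 0.160 FPKM. Cultures with IL6 at day 7 read 1.4001, 1.01 and 1.28 FPKM, with a mean of 1.23, and cultures without IL6 read 1.12, 1.46 and 1.43 FPKM, with a mean of 1.34. Both cultures stood above all hepatocyte samples and overlapped with each other, and the difference was not tested.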

How the results depend on the processing

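Of 79 called gene comparisons, 61 were called under every alternative that tested them, fold limits aside, and 18 lost the call under at least 1, among which Col15a1 at D3 reversed to -0.41 after quantile normalization. With the 4-fold limit as well, 26 of the 79 were called throughout. The counts of called collagen genes moved by over 1.5 times as follows, and the cause was not tested. With a 4-fold limit there were 6 in place of 10 at D3, 3 of 8 at D14, 0 of 6 for D14 against D3, 1 of 5 for passaged cells against D14, 3 of 12 for P35 against P10, 2 of 6 on maturation, 5 of 8 for IL6-iMHs against hepatocytes, and 0 at each time after PHX, where there had been 3, 2, 4, 4 and 2. With no fold limit there were 16 at D14, 15 for D14 against D3, 16 for passaged cells against hepatocytes, 12 for passaged cells against D14, 15 on maturation, and 7, 6, 7 and 10 at 6 h, 24 h, day 3 and day 7. Voom on recovered reads gave 13 at D14, 10 for D14 against D3, 14 in place of 9 and 8 in place of 5 for passaged cells, 10 on maturation, 14 for IL6-iMHs against hepatocytes, and 5, 7 and 8 at 6 h, day 3 and day 7. A pseudocount of 0.1 gave 5, 7 and 8 at the same times and the TPM scale 7 and 7 at day 3 and day 7. At day 14 after PHX a filter at 5 FPKM and quantile normalization each gave 1 in place of 2. For PHX-D14 against PHX-D3, in place of 0, a pseudocount of 0.1 and voom gave 1 each, and the TPM scale and no fold limit gave 2 each.

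With 1 sample left out, the counts ran from 3 to 5 at 6 h (5 without PHX-6h replicate 3), from 2 to 6 at day 3 (2 without PHX-D3 replicate 2, 6 without PHX-D3 replicate 1), from 2 to 5 at day 7 (2 without normal liver replicate 2 or PHX-D7 replicate 1) and from 0 to 2 for PHX-D14 against PHX-D3 (2 without PHX-D3 replicate 1 or 3). Samples shared only a replicate number: correlations of same-numbered samples ran from -0.378 to 0.573. With the replicate block 3 genes in place of 4 were called at day 3 and at day 7 after PHX, where Col3a1 and Col1a1 lost their calls, and the other counts were the same. Without clone-1, an alternative chosen after seeing the data, the counts stayed within 1.5 times.

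The 28 cell and 26 liver collagen genes left untested were not assessed with this filter, although Col12a1 reached 2.81 FPKM in a liver.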
